A study of Homo sapiens with 38 samples.

Results

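Imprinted genes are transcribed mainly from the copy inherited from 1 parent, and their levels were followed here in H9 human embryonic stem cells while WNT signalling was switched on in 3 ways. The members were the rows of the deposited gene table named H19, IGF2, MEG3, DLK1, MEST, PEG10, SNRPN, NNAT, KCNQ1OT1 and CDKN1C. All 10 were found among 43412 rows, and all 10 passed the filter on low counts that left 24304 genes. H9 is an established embryonic stem cell line grown in the primed pluripotent state. In the first arm, H9 cells received 10 µM CHIR99021, an inhibitor of the kinase GSK3 that spares beta-catenin from destruction, for 8, 16, 24, 48 or 72 h. In the second arm, H9 cells received 240 ng/ml recombinant Wnt3a, a secreted ligand, for 8, 24, 48, 72, 96 or 120 h. The third arm, bcat, was an H9 line with a stably integrated, doxycycline-regulated ΔN90 beta-catenin, a form without the stretch that marks it for destruction, and it received 1 µg/ml doxycycline for 8, 16, 24, 48 or 72 h. The labels do not say whether this line is 1 clone or a pool. Each arm had its own 0 h cultures, which were untreated H9 cells in the CHIR99021 and Wnt3a arms and the uninduced line in the bcat arm. The 19 groups had 2 libraries of total RNA each, and the bcat line was not followed beyond 0 h without doxycycline.

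Imprints are set in the germ line as DNA methylation of control regions, are kept through cell division by maintenance proteins, and decide which parental copy is read. Because 1 copy is active, such a gene can be silenced by a change of that copy, or be read from both copies when the imprint is lost. In pluripotent stem cell lines imprints are known to differ between lines and passages. The table sums reads from both copies and holds no allele and no methylation, so a level given here says nothing of the copy it came from. In bulk RNA, fewer cells that use a gene and less RNA per cell cannot be told apart.

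Depth ran from 2.45 M to 65.7 M estimated counts per library, and levels are given in CPM, counts scaled to a common total after TMM, a correction for differences in composition. The Wnt3a 72 h replicates held the same values and counted as 1 library, which left n = 1 there and 37 libraries in all. The labels call the replicates biological and say no more, so p-values measure the spread between these libraries. The standard errors and p-values at Wnt3a 72 h come from the spread of the other groups and assume that its lone library varies like them. Ribosomal RNA took 34.1%, 60.4% and 60.3% of the counts of bcat 0 h replicate 1, bcat 24 h replicate 1 and bcat 48 h replicate 2, against a median of 5.13%. These 3 and the shallowest, Wnt3a 0 h replicate 1, are the 4 libraries in doubt. The other bcat libraries held 5.79% to 27.2% ribosomal RNA, against 1.71% to 18.8% in the CHIR99021 arm and 0.419% to 4.94% in the Wnt3a arm. This share thus tended to follow the arm, which leaving out the 4 does not change. At 0 h the 8 pluripotency markers were all detected in each arm, with summed levels of 4759 to 5365 CPM in bcat, 5164 to 5264 CPM before CHIR99021 and 5425 to 6524 CPM before Wnt3a. The medium was also changed at the start of treatment, with no culture in the second medium alone, so treatment, medium and time cannot be told apart in a change from 0 h.

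Before any treatment, the bcat line differed from both other arms in NNAT, which was nearly silent, and in CDKN1C, which was higher. The line was present only in its own arm, so the line, its cultures and its set of libraries cannot be told apart. At an adjusted p below 0.05, the line used for calls throughout, 3 of the 10 genes differed between bcat and CHIR99021 cultures at 0 h, beside 15.7% of all genes tested. NNAT and DLK1 were lower and CDKN1C was higher in bcat. Against the Wnt3a cultures 4 differed, beside 24% of all genes: NNAT and PEG10 were lower, and SNRPN and CDKN1C were higher in bcat. Between the untreated H9 cultures of the CHIR99021 and Wnt3a arms 1 differed, DLK1, beside 10.9% of all genes. These comparisons share their 0 h libraries. The median log2 difference of the 10 genes was -0.12, 0.33 and 0.24 in these comparisons, beside -0.09, -0.03 and 0.04 over all genes.

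**Figure D1:**
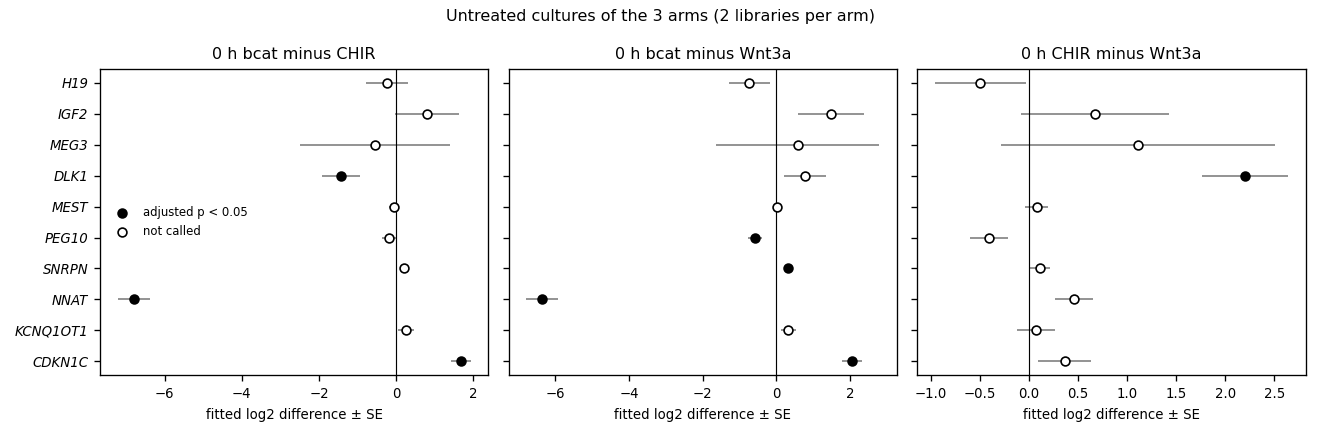
Fitted log2 differences of the 10 imprinted genes between untreated cultures, first-named arm minus second, with standard errors as bars (2 libraries per arm) and filled points at an adjusted p below 0.05. NNAT stands at -6.81 and -6.35 where bcat is compared and at 0.46 between the H9 cultures, where DLK1 is the filled point.

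NNAT encodes neuronatin, a small membrane protein of developing brain, and is normally read from the paternal copy. Its gene lies at chromosome 20, 37521206 to 37523693 on the plus strand (GENCODE release 29, GRCh38, as are all gene positions here), inside the span of BLCAP, which runs on the opposite strand from 37492472 to 37527931. At 0 h NNAT stood at 28.6 and 26.0 CPM in the CHIR99021 cultures and at 15.8 and 21.9 CPM in the Wnt3a cultures. In the uninduced bcat line it stood at 0.588 and 0.107 CPM, from 2 counts and 1 count. Both bcat libraries lay far below the 4 others. The ratio of pooled counts was 115 for CHIR99021 over bcat (95% interval 39.1 to 556) and 91.9 for Wnt3a over bcat (31.4 to 446). These intervals cover counting error only. The fitted differences were -6.81 ± 0.41 (log2 ± standard error, adjusted p = 7.76e-13) and -6.35 ± 0.43 (adjusted p = 1.10e-11). With so few counts the size depended on the library: without bcat 0 h replicate 1 they were -7.92 and -7.50, and without replicate 2 they were -5.52 and -5.06.

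NNAT stayed low at every hour of doxycycline. Across the 12 bcat libraries it ran from 0.0983 to 0.614 CPM with a median of 0.354 and 84 counts in all, and its change over time was not called (adjusted p = 0.600). Across the 12 CHIR99021 libraries it ran from 17.9 to 46.2 CPM, and across the 13 Wnt3a libraries from 13.0 to 40.4 CPM, so neither arm overlapped bcat. Pooled over all libraries the ratio was 80.6 (65.1 to 101) for CHIR99021 over bcat and 67.6 (54.6 to 84.9) for Wnt3a over bcat.

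In the other arms NNAT changed with time. With CHIR99021 it was 27.3 ± 1.87 CPM at 0 h (mean ± standard deviation, n = 2, as for all such values), 42.3 ± 5.44 at 48 h (0.64 ± 0.18, adjusted p = 0.00615) and 43.2 ± 3.54 at 72 h (0.67 ± 0.18, adjusted p = 0.00560). Neither rise was called without CHIR99021 0 h replicate 2 (adjusted p = 0.0741 and 0.0772), nor without replicate 1 of its own hour (adjusted p = 0.105 and 0.0794). A fall at 24 h (-0.54 ± 0.19, adjusted p = 0.0491) was not called when any of its 4 libraries was left out (adjusted p from 0.106 to 0.243). With Wnt3a it rose from 18.9 ± 4.27 CPM to 37.6 ± 3.85 CPM at 48 h (0.93 ± 0.19, adjusted p = 0.000698) and fell to 13.9 ± 1.18 CPM at 96 h (-0.51 ± 0.20, adjusted p = 0.0360, but 0.666 without Wnt3a 0 h replicate 2 and 0.0553 and 0.136 without either 96 h library).

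The gene whose pattern over the 19 group means was most like that of NNAT was PEG3 (Pearson r = 0.989 of mean log2(CPM + 1), among 13758 genes), followed by ZNF37A (r = 0.981) and HDX (r = 0.977). These coefficients describe group means from shared libraries. The bcat groups, low in both NNAT and PEG3, weigh heavily in r, so it says little of changes within an arm. PEG3 encodes a zinc finger protein and is itself a paternally read imprinted gene. It had 0 counts in all 12 bcat libraries, against 73.5 and 66.0 CPM in the CHIR99021 cultures and 86.4 and 93.9 CPM in the Wnt3a cultures at 0 h. With 3 counts over the group in place of 0, PEG3 was at least 292-fold and at least 398-fold lower in bcat at 0 h. ZIM2, which shares its promoter with PEG3, also had 0 counts in all 12, and its highest level elsewhere was 1.14 CPM.

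INPP5F, which encodes an inositol phosphatase and has an imprinted isoform, was reduced in bcat but not silent. It stood at 18.2 and 22.6 CPM in bcat, 160.0 and 153 CPM in CHIR99021 and 130.0 and 150.1 CPM in Wnt3a cultures at 0 h. The differences were -2.90 ± 0.16, adjusted p = 5.19e-14, and -2.75 ± 0.16, adjusted p = 2.19e-13. Over all hours its highest bcat library, 23.5 CPM, lay below the lowest library of the other arms, 93.7 CPM. BLCAP, the gene around NNAT, was 16.9 CPM in bcat and 29.9 and 25.8 CPM in the CHIR99021 and Wnt3a cultures at 0 h (-0.82 ± 0.17, adjusted p = 0.00110, and -0.66 ± 0.18, adjusted p = 0.00653). It fell with CHIR99021 to 11.4 CPM at 48 h (-1.39 ± 0.16, adjusted p = 3.67e-08), an hour at which NNAT was higher than at 0 h. The kit keeps strand, but whether the counting used it is not given in the sources used here.

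**Figure D2:**
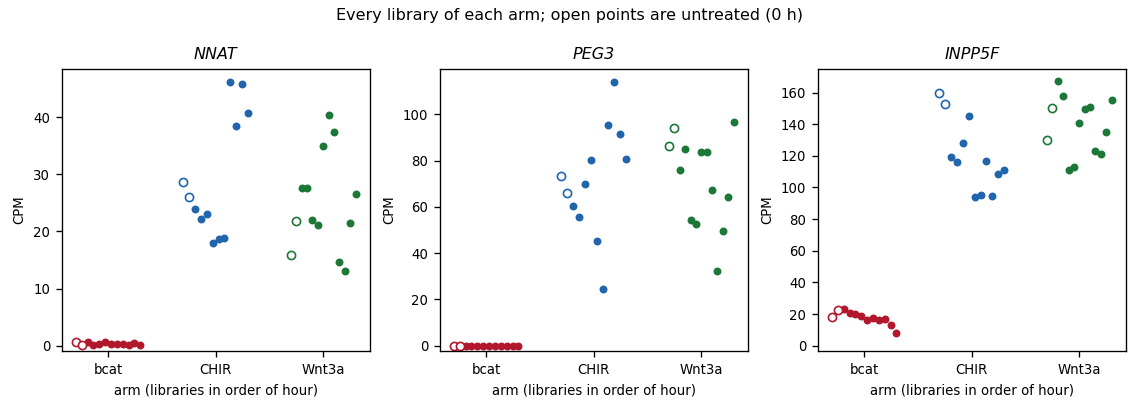
Level in CPM of NNAT, PEG3 and INPP5F in every library of the 3 arms, with 0 h libraries as open points. All 12 bcat libraries lie at or below 0.614 CPM for NNAT, at 0 for PEG3 and at or below 23.5 CPM for INPP5F, and no library of the other arms overlaps them.

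CDKN1C encodes p57, an inhibitor of cyclin-dependent kinases that restrains growth, and is read from the maternal copy (chromosome 11, 2883213 to 2885773, minus strand). At 0 h it stood at 22.1 and 22.4 CPM in bcat, at 6.54 and 7.25 CPM in the CHIR99021 cultures and at 5.50 and 5.34 CPM in the Wnt3a cultures. Both bcat libraries lay above all 4 others. The differences were 1.68 ± 0.26 (adjusted p = 1.91e-05) and 2.05 ± 0.28 (adjusted p = 2.54e-06), and between the H9 cultures 0.36 ± 0.27 (adjusted p = 0.477). KCNQ1 and SLC22A18, of the same domain, were also higher in bcat than before Wnt3a. KCNQ1 stood at 7.06 and 3.32 against 0.970 and 1.79 CPM (1.58 ± 0.55, adjusted p = 0.0372). SLC22A18 stood at 4.12 and 4.71 against 1.29 and 2.42 CPM (1.03 ± 0.35, adjusted p = 0.0303). Neither was called against the CHIR99021 cultures. PHLDA2, a further gene there, was 0.508 CPM in bcat and 0.617 CPM before Wnt3a.

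After 8 h of doxycycline CDKN1C had fallen to 7.97 ± 1.83 CPM (-1.44 ± 0.26, adjusted p = 0.000124), and at 16 h it was 10.0 ± 0.0362 CPM (-1.15 ± 0.25, adjusted p = 0.00259). At 24, 48 and 72 h it was 19.4, 15.1 and 15.5 CPM, none called against 0 h. With CHIR99021 CDKN1C was 4.03 ± 1.13 CPM at 8 h (-0.76 ± 0.25, adjusted p = 0.0311, but 0.0668 without 0 h replicate 1 and 0.278 without 8 h replicate 2) and 12.2 ± 0.587 CPM at 24 h (0.82 ± 0.25, adjusted p = 0.0220). The call at 24 h was lost when any of its 4 libraries was left out (adjusted p from 0.0633 to 0.146). It rose to 13.8 ± 0.524 CPM at 48 h (0.99 ± 0.24, adjusted p = 0.00166) and 13.5 ± 0.873 CPM at 72 h (0.96 ± 0.24, adjusted p = 0.00326). With Wnt3a it was 10.9 ± 0.919 CPM at 24 h (1.02 ± 0.27, adjusted p = 0.00668) and 11.4 CPM at 72 h (n = 1, 1.09 ± 0.31, adjusted p = 0.0125). Neither was called without Wnt3a 0 h replicate 2 (adjusted p = 0.179 and 0.177), nor was 24 h without 24 h replicate 2 (adjusted p = 0.0605). At 48 h it was 4.45 CPM, not called, and it rose to 20.3 ± 5.21 CPM at 96 h (1.92 ± 0.27, adjusted p = 1.08e-06). At 120 h the libraries were 24.0 and 11.6 CPM, and the rise of 1.73 was 1.11 without replicate 1. The change differed between arms in all 3 pairs, with adjusted p = 0.00956 for bcat and CHIR99021, 0.00931 for bcat and Wnt3a and 0.00673 for CHIR99021 and Wnt3a. Without the 4 libraries in doubt the pairs with bcat gave 0.0586 and 0.0670, and without Wnt3a 48 h replicate 1 the last pair gave 0.0678. Wnt3a 96 and 120 h lie outside these tests, which use shared hours only.

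DLK1, a transmembrane relative of the NOTCH ligands that is read from the paternal copy, was called between the untreated H9 cultures (chromosome 14, 100725705 to 100738224, plus strand). It stood at 2.82 and 2.64 CPM before CHIR99021. Before Wnt3a it had 0 counts in replicate 1, which at that depth allows up to 0.970 CPM, and 0.675 CPM in replicate 2. The CHIR99021 cultures lay above both (2.20 ± 0.44, adjusted p = 0.00105). Without Wnt3a 0 h replicate 2 the fitted value was 8.87, which rests on a library with 0 counts and is no measured fold. In bcat DLK1 was 0.882 and 1.07 CPM, from 3 and 10 counts. The difference from CHIR99021 (-1.43 ± 0.48, adjusted p = 0.0421) was not called when any of the 4 libraries was left out (adjusted p from 0.0983 to 0.204), nor with DESeq2 (adjusted p = 0.0962).

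The other differences at 0 h were smaller. PEG10, a retrotransposon-derived gene of the placenta that is read from the paternal copy, stood at 104 and 121 CPM in bcat and at 169 and 169 CPM in the Wnt3a cultures (-0.58 ± 0.20, adjusted p = 0.0332). That call was lost when any of the 4 libraries was left out (adjusted p from 0.0699 to 0.157). SNRPN stood at 693 and 762 CPM in bcat and at 528 and 630.0 CPM in the Wnt3a cultures (0.33 ± 0.11, adjusted p = 0.0245), and leaving out bcat 0 h replicate 2 or Wnt3a 0 h replicate 1 ended the call (adjusted p = 0.205 and 0.195). Without the 4 libraries in doubt neither was called (adjusted p = 0.275 and 0.205), which left 2 of 10 genes. MEST stood at 182 and 226 CPM in bcat, 213 and 212 CPM before CHIR99021 and 177 and 222 CPM before Wnt3a, with differences of -0.05 ± 0.12, 0.02 ± 0.12 and 0.08 ± 0.12. KCNQ1OT1 differed by 0.26 ± 0.20, 0.32 ± 0.21 and 0.07 ± 0.19, none called. H19, IGF2 and MEG3 were low at 0 h, none was called, and the standard errors of their differences between bcat and CHIR99021 were 0.55, 0.83 and 1.96.

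Markers of cell state are given here beside the differences at 0 h. Of the 8 pluripotency markers, 3 were called between bcat and CHIR99021, 2 higher and 1 lower in bcat (median log2 0.14), and 4 between bcat and Wnt3a, 1 higher and 3 lower (median 0.01). Between the H9 cultures 3 were called, all lower before CHIR99021 (median -0.18). SOX2, a core pluripotency factor, was higher in bcat than in both other arms (0.54 ± 0.15, adjusted p = 0.0123, and 0.63 ± 0.15, adjusted p = 0.00278), and TDGF1, a NODAL coreceptor, was higher than before CHIR99021 (0.45 ± 0.16, adjusted p = 0.0471). NANOG and the methyltransferase gene DNMT3B were lower in bcat than before Wnt3a (-1.04 ± 0.24, adjusted p = 0.00261, and -0.54 ± 0.10, adjusted p = 0.000134). L1TD1, an RNA-binding protein of pluripotent cells, was 175 and 227 CPM in bcat, 495 and 532 CPM before CHIR99021 (-1.34 ± 0.19, adjusted p = 1.05e-05) and 721 and 921 CPM before Wnt3a (-2.02 ± 0.19, adjusted p = 1.87e-08). The summed level of 6 fibroblast markers was 168 to 180.0 CPM in bcat, 123 to 129 CPM before CHIR99021 and 127 to 127 CPM before Wnt3a, with COL3A1 and LUM at 0 counts in both bcat libraries. Of these, COL1A1 was called higher in bcat than before CHIR99021 (0.86 ± 0.24, adjusted p = 0.0166). COL1A2 was called higher in bcat than before Wnt3a (0.53 ± 0.14, adjusted p = 0.00397), as was DCN, from 5 and 3 counts. The 5 neural ectoderm markers summed to 32.3 to 35.9, 41.2 to 42.1 and 35.6 to 41.1 CPM, with PAX6 at 0 counts in each. DLL3, a presomitic mesoderm marker, was higher in bcat than before CHIR99021 (0.99 ± 0.25, adjusted p = 0.00564) and Wnt3a (1.99 ± 0.28, adjusted p = 4.95e-06). KRT7, of trophoblast and amnion, was higher too (1.29 ± 0.43, adjusted p = 0.0369, and 1.32 ± 0.46, adjusted p = 0.0332). AFP, of endoderm and yolk sac, was 2.26 and 1.39 CPM before Wnt3a, called above bcat (0.588 and 0.428 CPM) and CHIR99021 (0.302 and 0.355 CPM). The part of these differences in the levels of the imprinted genes was not tested.

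Over time most of the 10 genes changed in each arm, as did a large share of all genes. With Wnt3a 10 of 10 changed at some hour, beside 54.3% of all genes. With CHIR99021 8 changed, beside 50.4%, and in bcat 7, beside 41.1%. MEG3 and KCNQ1OT1 were not called in the CHIR99021 arm (adjusted p = 0.562 and 0.272), nor H19, MEG3 and NNAT in bcat (adjusted p = 0.914, 0.337 and 0.600). At 8, 16, 24, 48 and 72 h of CHIR99021, 2, 3, 4, 6 and 7 genes were called against 0 h, beside 20.9%, 15.9%, 14.5%, 33.9% and 24.9% of all genes. At 8, 24, 48, 72, 96 and 120 h of Wnt3a, 0, 4, 4, 7, 10 and 7 were called, beside 3.45%, 20.2%, 16.1%, 16.4%, 39.9% and 27.9%. At 8, 16, 24, 48 and 72 h of doxycycline in bcat, 3, 2, 2, 2 and 3 were called, beside 18.7%, 10.9%, 12.8%, 21.3% and 27.3%. At 96 h of Wnt3a all 10 were called, 5 higher and 5 lower. There the calls of H19, IGF2, MEG3, NNAT and PEG10 depended on Wnt3a 0 h replicate 2, as described for each gene.

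**Figure D3:**
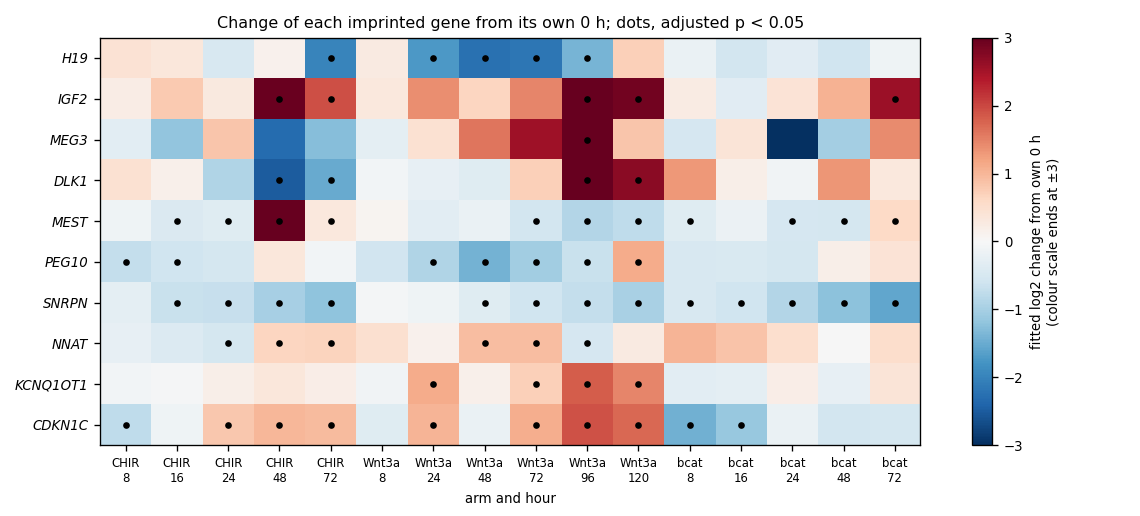
Fitted log2 change of each imprinted gene from the 0 h libraries of its own arm, by arm and hour (red higher, blue lower, colour ends at 3 in either direction), with dots at an adjusted p below 0.05. SNRPN is below 0 at every hour of all arms, nearly white at Wnt3a 8 h, MEST is deep red at CHIR99021 48 h, and the dark MEG3 cell at bcat 24 h rests on 0 counts.

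MEST encodes a hydrolase found in mesoderm, is read from the paternal copy and lies at chromosome 7, 130486171 to 130506465, plus strand. RefSeq lists several starts for it. The window from 250 bases before to 50 after a start inside the imprinted CpG island is shown because MEST had the largest called change among the members above 10 CPM, apart from NNAT. It is written 5′ to 3′ on the plus strand from RefSeq, GRCh38.p14, with each CG in capitals.
MEST promoter, chr7:130491808-130492107: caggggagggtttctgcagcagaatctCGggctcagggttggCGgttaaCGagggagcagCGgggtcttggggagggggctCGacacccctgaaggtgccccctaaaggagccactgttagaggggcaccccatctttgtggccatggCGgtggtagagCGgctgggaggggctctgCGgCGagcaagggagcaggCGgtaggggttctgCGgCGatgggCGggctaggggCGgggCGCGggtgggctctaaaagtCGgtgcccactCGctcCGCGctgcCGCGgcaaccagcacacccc
This window holds 22 CG pairs, against a median of 14 over 35116 promoter windows of the same length (quartiles 4 and 28). It holds TGCCGC, the letters bound in methylated form by the imprint keeper ZFP57, 2 times on both strands together, and 16.7% of all windows hold it. Each such match includes a CG. The core letters of TCF/LEF factors, through which beta-catenin acts, were searched on both strands as CTTTGAT, as CTTTGAA, as CTTTGTT and as CTTTGTA, and 13.8% of all windows hold at least 1 of them. They are not in this window and occur 1 time in the window of another MEST start, chr7:130491079-130491378.

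In the CHIR99021 arm MEST stood at 213 and 212 CPM at 0 h, 196 and 190.0 at 8 h, 166 and 148 at 16 h, 163 and 167 at 24 h, 1699 and 1676 at 48 h, and 298 and 229 at 72 h. Both 48 h libraries lay far above all other libraries of the study, and the level had dropped again by 72 h. The change at 48 h was 2.99 ± 0.12 (adjusted p = 2.93e-18). At 72 h it was 0.31 ± 0.11 (adjusted p = 0.0419), and 0.11 (adjusted p = 0.657) without 72 h replicate 1. It was also not called without 0 h replicate 1, 0 h replicate 2 or 48 h replicate 2 of CHIR99021 (adjusted p = 0.140, 0.159 and 0.0516). Small falls were called at 16 h (-0.44 ± 0.11) and 24 h (-0.36 ± 0.11), and neither was called without replicate 2 of its hour (adjusted p = 0.134 and 0.116). In bcat MEST fell to 144 ± 5.38 CPM at 24 h (-0.51 ± 0.12, adjusted p = 0.00287) and 141 ± 2.59 CPM at 48 h (-0.54 ± 0.12, adjusted p = 0.000979), and rose to 309 and 307 CPM at 72 h (0.59 ± 0.12, adjusted p = 0.000221). The falls were not called without bcat 0 h replicate 2 (adjusted p = 0.150 and 0.0787). With Wnt3a no rise of MEST was called at any hour. It was 176 ± 9.80 CPM at 48 h and 138 CPM at 72 h (n = 1, -0.54 ± 0.14, adjusted p = 0.00776, but 0.153 without Wnt3a 0 h replicate 2). It fell to 110.2 ± 6.01 CPM at 96 h (-0.87 ± 0.12, adjusted p = 5.26e-07) and 119 ± 1.18 CPM at 120 h (-0.75 ± 0.12, adjusted p = 9.29e-06).

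The change of MEST differed between arms in all 3 pairs, with adjusted p = 2.58e-15 for bcat and CHIR99021, 2.31e-15 for CHIR99021 and Wnt3a and 1.45e-06 for bcat and Wnt3a. The last was not called without the single Wnt3a 72 h library (adjusted p = 0.148), which leaves 8, 24 and 48 h to compare. The genes most like MEST over the group means were CPNE4 (r = 0.955), FGF9 (r = 0.953) and CITED1 (r = 0.949). Each was highest at 48 h of CHIR99021, as was MEST, and that group weighs heavily in r. CITED1, a transcriptional coregulator, ran from 0.325 to 49.7 CPM across the CHIR99021 libraries and reached 3.48 CPM in bcat and 1.12 CPM with Wnt3a. The 5 presomitic mesoderm markers summed to 11.3 to 12.7 CPM at CHIR99021 0 h, 441 to 549 at 48 h and 166 to 259 at 72 h. They summed to 115 to 162 CPM at bcat 72 h and 25.7 to 26.1 CPM at Wnt3a 96 h, where MSGN1 was at 0 counts. Their part in the rise of MEST was not tested. MESTIT1, the antisense transcript of the same island, was 1.04 CPM at 0 h and 0.895 CPM at 48 h of CHIR99021 and was called at no hour of any arm. COPG2, the neighbouring gene of the coat of transport vesicles, was 126 CPM at 0 h and 111 CPM at 48 h of CHIR99021, not called. CPA4, a carboxypeptidase gene of the same cluster, went from 0.0444 to 0.994 CPM at 48 h of CHIR99021, from 3 and 45 counts (4.06 ± 0.98, adjusted p = 0.00150), and was called at no other hour of any arm.

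**Figure D4:**
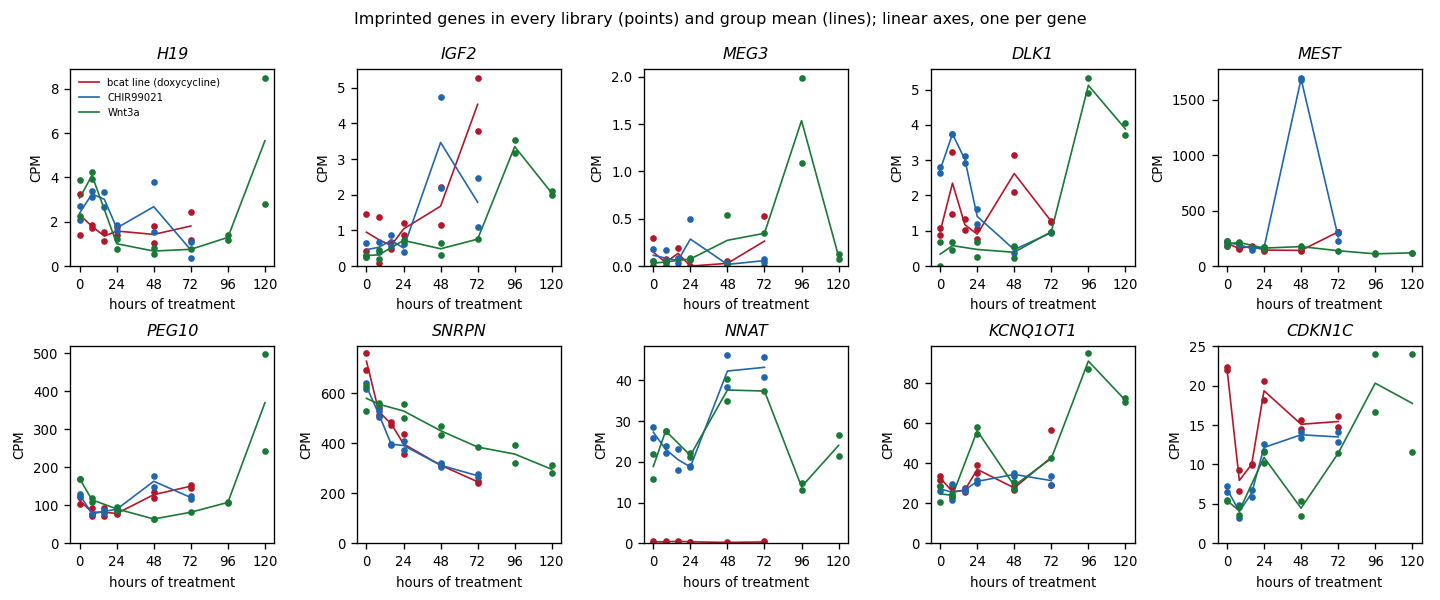
Level of each imprinted gene in CPM in every library (points) and as group means (lines) against hours of treatment, on linear axes. MEST reaches 1699 and 1676 CPM at CHIR99021 48 h, SNRPN is lower at the last hour than at 0 h in all arms, and NNAT stays near 0 in bcat.

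SNRPN fell in every arm. It encodes SmN, a protein of the spliceosome, in the Prader-Willi and Angelman region, is read from the paternal copy and spans chromosome 15, 24823637 to 24978723, plus strand. The window around its start in the imprinting centre of the region is shown because SNRPN fell in all arms, written as above from RefSeq, GRCh38.p14, plus strand, with each CG in capitals.
SNRPN promoter, chr15:24954737-24955036: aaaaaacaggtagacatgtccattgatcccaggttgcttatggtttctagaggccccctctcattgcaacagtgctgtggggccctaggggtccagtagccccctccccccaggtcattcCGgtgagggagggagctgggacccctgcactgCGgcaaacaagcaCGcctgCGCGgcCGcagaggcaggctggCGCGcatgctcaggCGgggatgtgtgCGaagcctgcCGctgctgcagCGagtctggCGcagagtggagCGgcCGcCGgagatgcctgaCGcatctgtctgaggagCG
It holds 18 CG pairs, 2 matches to TGCCGC and 0 to the TCF/LEF letters. In bcat SNRPN stood at 693 and 762 CPM at 0 h, 526 ± 18.1 at 8 h, 478 ± 8.51 at 16 h, 397 ± 54.2 at 24 h, 312 ± 5.79 at 48 h and 246 ± 6.86 at 72 h (-1.57 ± 0.11, adjusted p = 1.43e-12). With CHIR99021 it stood at 615 and 639 CPM at 0 h, 391 ± 23.5 at 24 h, 312 ± 11.6 at 48 h and 269.7 ± 9.75 at 72 h (-1.22 ± 0.11, adjusted p = 2.10e-10). With Wnt3a it was 529 ± 41.8 CPM at 24 h and was first called at 48 h, at 449.8 ± 24.5 CPM (-0.37 ± 0.11, adjusted p = 0.0155, but 0.270 without Wnt3a 0 h replicate 2 and 0.152 without 48 h replicate 1). It was 296 ± 22.0 CPM at 120 h (-0.97 ± 0.11, adjusted p = 2.78e-08). The change differed between bcat and Wnt3a (adjusted p = 9.49e-05) and between CHIR99021 and Wnt3a (adjusted p = 0.00369), and was not called between bcat and CHIR99021 (adjusted p = 0.233). Summed pluripotency markers stood at 1918 to 2135 CPM at bcat 72 h, 2272 to 2307 at CHIR99021 72 h and 2830.0 to 2988 at Wnt3a 120 h, below their levels at 0 h, and their part in the fall of SNRPN was not tested. The genes most like SNRPN were CNTN1 (r = 0.949), SLC22A20 (r = 0.935) and TERF1 (r = 0.934).

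Some neighbours of SNRPN fell too. SNHG14, the long transcript downstream that hosts small nucleolar RNAs, went from 478 CPM to 216 CPM at 72 h of CHIR99021 (-1.15 ± 0.11, adjusted p = 1.27e-09). In bcat it went from 474 to 275 CPM at 72 h (-0.79 ± 0.11, adjusted p = 1.74e-06), and with Wnt3a from 501 to 305 CPM at 120 h (-0.72 ± 0.11, adjusted p = 8.01e-06). MAGEL2, a regulator of ubiquitin ligases, was called lower at some hours of every arm. It went from 3.50 to 0.706 CPM at 72 h of CHIR99021 (-2.41 ± 0.37, adjusted p = 6.06e-06) and from 5.78 to 2.80 CPM at 72 h of bcat (-1.02 ± 0.36, adjusted p = 0.0334). With Wnt3a it was 6.04 CPM at 0 h, 5.21 at 24 h, 2.53 at 48 h, 5.57 at 96 h and 2.96 at 120 h, called at 8, 48 and 120 h and not at 24, 72 and 96 h. NDN, a growth suppressor of the same region, fell at 8 and 16 h of CHIR99021 and at 96 h of Wnt3a (-0.54 ± 0.17, adjusted p = 0.0127), and in bcat it went from 21.9 to 29.7 CPM at 72 h, not called. NPAP1, a further gene of the region, rose with Wnt3a, from 0.301 CPM at 0 h, with 0 counts in a library, to 9.37 CPM at 96 h (4.14 ± 0.44, adjusted p = 9.87e-09), and was called at no hour of the other arms. UBE3A, the ubiquitin ligase lost in Angelman syndrome, was called at no hour of CHIR99021 or bcat and fell at Wnt3a 24 h (-0.38 ± 0.13, adjusted p = 0.0334) and 96 h (-0.59 ± 0.13, adjusted p = 0.000506). SNURF, which shares its promoter and first exons with SNRPN, was 25.6 and 23.8 CPM in bcat at 0 h, against 3.77 and 1.21 CPM before CHIR99021 (3.36 ± 0.88, adjusted p = 0.0124) and 4.53 and 1.66 CPM before Wnt3a (3.49 ± 0.99, adjusted p = 0.0143). Reads of these overlapping genes can be split between them in more than 1 way, so their separate levels are uncertain.

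IGF2 and H19 lie next to each other on chromosome 11 and are read from opposite copies. IGF2 is a fetal growth factor (2129112 to 2149603 in the first of its 2 gene models, minus strand), and H19 is an untranslated RNA (1995176 to 2001470, minus strand). Both were low, with 951 and 1879 counts in all 37 libraries. IGF2 rose late in every arm. With CHIR99021 it was 0.654 and 0.267 CPM at 0 h and 2.20 and 4.73 CPM at 48 h (2.97 ± 0.61, adjusted p = 0.000263). The value was 3.66 without CHIR99021 0 h replicate 1 and 2.32 without 48 h replicate 2. In bcat it was 1.47 and 0.428 CPM at 0 h and 5.27 and 3.80 CPM at 72 h (2.56 ± 0.71, adjusted p = 0.00710). That value was 3.42 without bcat 0 h replicate 1 and 1.63 (adjusted p = 0.239) without replicate 2. With Wnt3a IGF2 was 0.323 and 0.264 CPM at 0 h, from 1 count and 18 counts, and 3.53 and 3.17 CPM at 96 h (3.61 ± 0.71, adjusted p = 0.000139, but 0.0747 without Wnt3a 0 h replicate 2). At 72 h of CHIR99021 it was 1.10 and 2.48 CPM (1.94 ± 0.62, adjusted p = 0.0203, but 0.255 without 0 h replicate 2, and 1.34 with adjusted p = 0.193 without 72 h replicate 2). At 120 h of Wnt3a it was 2.10 and 2.00 CPM (2.90 ± 0.72, adjusted p = 0.00280, but 0.246 without 0 h replicate 2). At CHIR99021 48 h, bcat 72 h and Wnt3a 96 h both libraries lay above both 0 h libraries of their arm. The change of IGF2 was not called as different between any pair of arms (adjusted p = 0.131, 0.444 and 0.0586). Only shared hours enter these tests, so the Wnt3a rise at 96 and 120 h was not compared with the other arms.

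H19 was not called higher at any hour. With Wnt3a it stood at 2.26 and 3.87 CPM at 0 h and 4.26 and 3.93 CPM at 8 h, and then at 1.01 ± 0.324, 0.677 ± 0.188, 0.755 (n = 1) and 1.29 ± 0.157 CPM at 24, 48, 72 and 96 h. The falls were -1.72 ± 0.51, -2.23 ± 0.54, -2.16 ± 0.64 and -1.39 ± 0.49 (adjusted p = 0.0155, 0.00366, 0.0177 and 0.0245). Without Wnt3a 0 h replicate 2 they were -1.13, -1.65, -1.58 and -0.81, and none was called (adjusted p = 0.466, 0.296, 0.342 and 0.528). The fall at 24 h was also not called without 24 h replicate 1 (adjusted p = 0.128), nor that at 96 h without either 96 h library (adjusted p = 0.0694 and 0.112). At 120 h the libraries parted, at 2.82 and 8.49 CPM. With CHIR99021 H19 was 0.366 and 1.09 CPM at 72 h (-1.99 ± 0.53, adjusted p = 0.00487), with -1.15 (adjusted p = 0.247) without 72 h replicate 1 and -2.69 without replicate 2. Without CHIR99021 0 h replicate 2 it was not called (adjusted p = 0.0525), and without 72 h replicate 1 neither was the change over all hours of CHIR99021 (adjusted p = 0.194). In bcat no hour was called, and all libraries lay between 1.03 and 3.23 CPM.

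KCNQ1OT1, also on chromosome 11, is a long antisense RNA read from the paternal copy within KCNQ1 (2608328 to 2699994, minus strand), where it keeps neighbours such as CDKN1C silent on that copy. With CHIR99021 its group means ran from 25.5 to 34.4 CPM and no hour was called. With Wnt3a it stood at 20.7 and 28.7 CPM at 0 h, 58.0 and 54.6 at 24 h, 30.6 and 27.1 at 48 h, 42.4 at 72 h (n = 1), 87.3 and 95.0 at 96 h, and 72.4 and 70.6 at 120 h. The libraries of 24, 96 and 120 h lay above all others of that arm. At 72 h the rise was 0.71 ± 0.23 (adjusted p = 0.0284, but 0.133 without Wnt3a 0 h replicate 1). At 24, 96 and 120 h the rises were 1.11 ± 0.19 (adjusted p = 0.000100), 1.81 ± 0.19 (adjusted p = 1.13e-08) and 1.46 ± 0.19 (adjusted p = 8.70e-07). The change differed between CHIR99021 and Wnt3a over the hours they share (adjusted p = 0.00674), which do not include 96 and 120 h. In bcat the 72 h libraries parted, at 29.1 and 56.8 CPM. That change was not called (0.39 ± 0.20, adjusted p = 0.158), but was 0.80 (adjusted p = 0.00124) without replicate 1.

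Other long noncoding RNAs are given beside KCNQ1OT1 for the same hours. The median log2 change of 679 lincRNA genes minus that of 15905 genes coding for protein was 0.53, 0.74 and 0.38 at 24, 96 and 120 h of Wnt3a, 0.08 at 48 h and 0.21 at 72 h. It was 0.31 at bcat 72 h. The annotation types KCNQ1OT1 itself as antisense, and for 643 antisense genes the same measure was 0.56, 0.68 and 0.49 at 24, 96 and 120 h of Wnt3a, 0.22 at 48 h and 0.31 at 72 h. In bcat it was 0.34 at 24 h and 0.44 at 72 h. The part of these shifts in the rise of KCNQ1OT1 was not tested. KCNQ1, read on the other strand, was 1.38 CPM at 0 h and 1.46 CPM at 96 h of Wnt3a and was called at no single hour of that arm. PHLDA2, a maternally read brake on placental growth in the same domain, was 0.617 CPM at 0 h and 2.18 CPM at 96 h (1.86 ± 0.48, adjusted p = 0.00226), and SLC22A18, a transporter beside it, was 1.86 and 8.03 CPM (1.88 ± 0.32, adjusted p = 1.74e-05). At 120 h of Wnt3a they were 0.664 and 3.09 CPM. With CHIR99021, where KCNQ1OT1 was called at no hour, PHLDA2 was 0.712 CPM at 0 h and 2.33 CPM at 8 h. SLC22A18 was 2.77 CPM at 0 h, 5.68 CPM at 24 h and 6.07 CPM at 72 h of that arm. In bcat PHLDA2 went from 0.508 to 0.359 CPM at 72 h and SLC22A18 from 4.41 to 3.13 CPM. The genes most like KCNQ1OT1 over the group means were the noncoding RP11-96K19.4 (r = 0.952) and RP11-90C4.1 (r = 0.948), and the kinase FRK (r = 0.947).

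**Figure D5:**
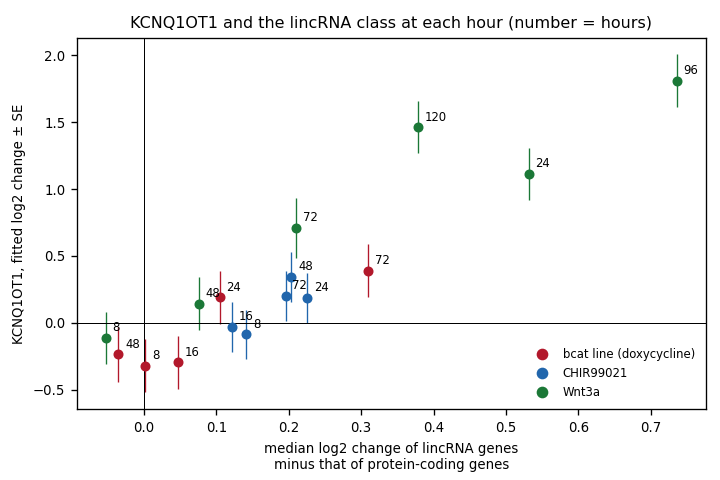
Fitted log2 change of KCNQ1OT1 from 0 h with its standard error, against the median log2 change of lincRNA genes minus that of protein-coding genes, 1 point per arm and hour. The Wnt3a points at 24, 96 and 120 h stand highest, at 1.11, 1.81 and 1.46, and furthest right, at 0.53, 0.74 and 0.38.

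In the chromosome 14 cluster, DLK1 and the maternally read noncoding RNA MEG3 (100779410 to 100861031, plus strand) rose late with Wnt3a. DLK1 went from 0 and 0.675 CPM to 5.32 and 4.92 CPM at 96 h (3.11 ± 0.44, adjusted p = 1.35e-06) and 4.06 and 3.71 CPM at 120 h (2.71 ± 0.45, adjusted p = 2.17e-05). All 4 late libraries lay above all earlier libraries of the arm. The fits without Wnt3a 0 h replicate 2, 9.78 and 9.38, rest on a 0 h library with 0 counts and are no measured folds. With CHIR99021 DLK1 fell, from 2.82 and 2.64 CPM at 0 h to 0.550 and 0.381 CPM at 48 h (-2.50 ± 0.43, adjusted p = 2.31e-05) and 0.964 and 0.931 CPM at 72 h (-1.51 ± 0.39, adjusted p = 0.00409, but 0.0570 without 72 h replicate 1). The change differed between CHIR99021 and Wnt3a over the hours they share (adjusted p = 0.00249), which do not include 96 and 120 h, and between bcat and CHIR99021 (adjusted p = 0.000132). In bcat DLK1 was 2.11 and 3.14 CPM at 48 h against 0.882 and 1.07 CPM at 0 h, not called (adjusted p = 0.0584).

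MEG3 was nearly absent, with 134 counts in all libraries and 0 counts in 10 of 37. Its 1 called hour was Wnt3a 96 h, at 1.98 and 1.09 CPM from 41 and 23 counts. At 0 h of Wnt3a it had 0 and 4 counts. The fitted change was 4.68 ± 1.28 (adjusted p = 0.00422), and leaving out Wnt3a 0 h replicate 2 ended the call (fitted 8.05, adjusted p = 0.183). The other 0 h library holds 0 counts, so that value is no measured fold. By 120 h MEG3 was at 0.131 and 0.0713 CPM. MEG9, a noncoding RNA further along the cluster, was 4.77 CPM at 96 h (5.39 ± 0.84, adjusted p = 7.14e-06), after 1.04 CPM at 72 h (n = 1, 3.20 ± 0.91, adjusted p = 0.0139), and 0.208 CPM at 120 h. DIO3, an enzyme at the far end of the cluster that inactivates thyroid hormone, was already 2.27 CPM at 24 h of Wnt3a. It was 2.89 CPM at 48 h and 4.56 CPM at 72 h (n = 1), hours before the called rises of DLK1 and MEG3. DIO3 was 15.0 CPM at 96 h (7.02 ± 0.60, adjusted p = 1.44e-10) and 34.4 CPM at 120 h (8.21 ± 0.61, adjusted p = 8.51e-12). Its mean at Wnt3a 0 h was 0.0587 CPM with 0 counts in a library, so the size of these folds is loosely known. DIO3 was also called at 72 h of bcat, at 1.60 CPM (4.25 ± 1.04, adjusted p = 0.00222), and at 48 h of CHIR99021, at 1.23 CPM (3.96 ± 0.67, adjusted p = 2.16e-05). The 6 endoderm and yolk sac markers summed to 115 to 187 CPM at Wnt3a 96 h, with TTR at 0 counts, against 1.86 to 2.91 CPM at 0 h. The neural ectoderm markers summed to 146 to 197 CPM, with PAX6 at 0 counts, against 35.6 to 41.1 CPM. Their part in the late rise of DLK1, MEG3 and IGF2 was not tested.

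PEG10 (chromosome 7, 94656325 to 94669695, plus strand) was first called lower at 8 h of CHIR99021 and at 24 h of Wnt3a. Its Wnt3a means were 169 CPM at 0 h, 114 CPM at 8 h, not called, and 90.3 CPM at 24 h. With CHIR99021 it went from 128 ± 3.27 CPM to 77.4 ± 0.775 CPM at 8 h (-0.72 ± 0.19, adjusted p = 0.00696, but 0.0615 without 8 h replicate 1) and was 163 ± 20.8 CPM at 48 h, not called (adjusted p = 0.169). The fall at 16 h (-0.61 ± 0.19) was not called when any of its 4 libraries was left out (adjusted p from 0.0875 to 0.229). In bcat it was 112, 81.7, 81.7, 78.2, 128 and 150.0 CPM at 0, 8, 16, 24, 48 and 72 h. No single hour was called there, although the test over all hours was called (adjusted p = 0.000432). With Wnt3a PEG10 fell from 169 and 169 CPM to 63.3 and 64.3 CPM at 48 h (-1.41 ± 0.20, adjusted p = 7.98e-06) and was 107 ± 0.659 CPM at 96 h (-0.66 ± 0.19, adjusted p = 0.00815, but 0.0589 without Wnt3a 0 h replicate 2). At 120 h it was 242 and 497 CPM (1.12 ± 0.19, adjusted p = 6.86e-05, and 0.52 with adjusted p = 0.0109 without 120 h replicate 2). Both 120 h libraries lay above every other library of the study. The 6 trophoblast and amnion markers summed to 34.0 to 36.1 CPM at 120 h, against 3.19 to 3.23 CPM at 0 h with GATA3 at 0 counts, and their part in the rise of PEG10 was not tested. The change of PEG10 differed between bcat and Wnt3a (adjusted p = 9.49e-05) and between CHIR99021 and Wnt3a (adjusted p = 2.29e-05). It was not called as different between bcat and CHIR99021. These tests cover shared hours only, so the values at 96 and 120 h are not in them.

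Averaged over the hours that a pair of arms shares, 3 of the 10 genes differed between bcat and CHIR99021, beside 45% of all genes. NNAT was lower in bcat (-6.34 ± 0.13, adjusted p = 1.19e-25), MEST was lower (-0.62 ± 0.05, adjusted p = 4.52e-12) and CDKN1C was higher (0.72 ± 0.10, adjusted p = 6.87e-07). The average for MEST rests mainly on 48 h: its means in bcat and CHIR99021 were 141 and 1688 CPM there, 204 and 212 at 0 h, 159 and 193 at 8 h, and 144 and 165 at 24 h. At 16 h (180.0 and 157 CPM) and 72 h (308 and 263 CPM) the bcat mean was the higher. Between bcat and Wnt3a 5 differed, beside 47.9%. NNAT (-6.42 ± 0.15, adjusted p = 3.13e-24) and SNRPN (-0.27 ± 0.05, adjusted p = 4.36e-05) were lower in bcat. DLK1 (1.33 ± 0.22, adjusted p = 9.03e-06), CDKN1C (1.19 ± 0.12, adjusted p = 1.52e-09) and IGF2 (1.57 ± 0.32, adjusted p = 0.000187) were higher. IGF2 was 0.94 (adjusted p = 0.112) without bcat 8 h replicate 1. Between CHIR99021 and Wnt3a 5 differed, beside 39.2%. SNRPN was lower with CHIR99021 (-0.29 ± 0.05, adjusted p = 1.48e-05), and MEST (0.83 ± 0.05, adjusted p = 2.01e-13), DLK1 (1.30 ± 0.21, adjusted p = 7.70e-06), CDKN1C (0.46 ± 0.12, adjusted p = 0.00239) and IGF2 (0.99 ± 0.31, adjusted p = 0.0116) were higher. For MEST the means with CHIR99021 and Wnt3a were 1688 and 176 CPM at 48 h, and 165 and 162 CPM at 24 h. Without Wnt3a 0 h replicate 2 the DLK1 values were 2.67 against bcat and 2.63 against CHIR99021, and IGF2 was not called against CHIR99021 (adjusted p = 0.0768), nor without CHIR99021 24 h replicate 2 (adjusted p = 0.0528). The change from 0 h differed between arms in 3 genes for bcat and CHIR99021, beside 25.8% of all genes, in 5 for bcat and Wnt3a, beside 26.4%, and in 7 for CHIR99021 and Wnt3a, beside 29.3%.

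Other imprinted genes were read from a list of 51, of which 43 were tested. At 0 h 6 of these differed between bcat and CHIR99021 (2 higher and 4 lower in bcat, median log2 -0.19), 10 between bcat and Wnt3a (4 higher and 6 lower, median -0.14) and 2 between the H9 cultures (1 higher and 1 lower with CHIR99021, median 0.10). The shares called over all genes were 15.7%, 24% and 10.9%, so these counts lay below that background. The medians over all genes are given above. ZNF597, a maternally read zinc finger gene, was 1.18 and 2.46 CPM in bcat and 4.32 and 5.39 CPM before CHIR99021 (-1.26 ± 0.31, adjusted p = 0.00456). NAP1L5, a paternally read relative of nucleosome assembly proteins, was 1.47 and 3.32 CPM in bcat, 0.905 and 1.18 CPM before CHIR99021 and 3.56 and 2.45 CPM before Wnt3a, and differed between the H9 cultures as well (-1.38 ± 0.39, adjusted p = 0.0172).

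Of 12 genes for imprint maintenance, 12 tested, 1, 2 and 1 were called at 0 h in the same order of comparisons, each lower in the first-named arm. Over all genes 15.7%, 24% and 10.9% were called, more than in this list. UHRF1, which brings the methyltransferase DNMT1 to newly copied DNA, was 12.9 and 15.4 CPM in bcat, 44.4 and 48.0 CPM before CHIR99021 and 73.4 and 93.9 CPM before Wnt3a. The differences were -1.67 ± 0.21, adjusted p = 1.45e-06 for bcat and CHIR99021, -2.55 ± 0.21, adjusted p = 7.49e-10 for bcat and Wnt3a and -0.88 ± 0.18, adjusted p = 0.00131 between the H9 cultures. Across all hours UHRF1 ran from 12.9 to 100.3 CPM in bcat and from 24.4 to 101 CPM with Wnt3a, so these ranges overlap. At 8 h it was 100.3 and 90.8 CPM in bcat, 99.3 and 92.0 CPM with CHIR99021 and 86.7 and 96.9 CPM with Wnt3a. ZFP57, which reads the methylated hexamer, was not called at 0 h. It was 0.482 CPM before CHIR99021 and 0.00964 CPM at 72 h, from 27 counts and 1 count (-4.59 ± 0.92, adjusted p = 0.000280). With Wnt3a it went the other way, from 0.198 CPM at 0 h, with 0 counts in a library, to 3.24 and 3.57 CPM in its libraries at 24 h (3.28 ± 0.59, adjusted p = 0.000150), and was 0.323 CPM at 48 h, not called. In bcat no hour was called. The other call at 0 h, between bcat and Wnt3a, was DPPA3, a maternal factor that shields imprints in the zygote, with 3 counts in bcat against 166 (-3.07 ± 0.87, adjusted p = 0.00989).

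Around IGF2, 13 of 15 genes of its growth factor axis were tested, and 6, 9 and 8 differed at 0 h in these comparisons, of which 5, 7 and 7 were higher in the first-named arm. The shares called over all genes were 15.7%, 24% and 10.9%. The median log2 of the 13 was -0.14, 0.53 and 0.40. IGFBP5, a binding protein of the growth factor, was 60.6 and 73.5 CPM in bcat, 21.7 and 17.5 CPM before CHIR99021 and 4.53 and 4.68 CPM before Wnt3a. All 3 differences were called, at 1.78 ± 0.25, adjusted p = 5.06e-06, at 3.86 ± 0.29, adjusted p = 9.06e-11 and at 2.07 ± 0.28, adjusted p = 9.95e-06. IGFBP2, another binding protein, had the same order, at 1199 and 1477 CPM in bcat, 843 and 849 CPM before CHIR99021 and 385 and 483 CPM before Wnt3a. IRS1, an adaptor of the receptor, was lower in bcat, at 19.7 and 24.4 CPM against 44.6 and 43.1 CPM before CHIR99021 (-0.96 ± 0.17, adjusted p = 0.000120) and 36.5 and 45.4 CPM before Wnt3a (-0.90 ± 0.17, adjusted p = 0.000238).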

How the data were processed

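Total RNA-seq of 37 distinct libraries was read from 1 deposited gene table. The deposited values were the authors' estimated counts from kallisto 0.43.0, per the submitters' processing notes. Their low values fall on steps of 1 constant per library, and no source used here states why. The build and annotation used for counting were not given in the sources used here. Each library was divided by its constant, found from those steps (0.265 to 6.58), and rounded to whole numbers. Of the values up to 20, 57.3% to 81.2% per library lay within 0.1 of a whole number.

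Genes were tested with edgeR 4.0.16 (quasi-likelihood, TMM, 19 group means, filterByExpr, R 4.3.3), with Benjamini-Hochberg adjusted p over 24304 genes within each comparison. DESeq2 1.42.0, other scalings and filters, leaving out each library, a replicate block and the deposited values were the alternatives, 45 in all. On simulated data for the 0 h comparison of bcat and CHIR99021 (24304 genes), 34 of 100 genes changed 2-fold and 62 of 100 changed 4-fold were called. All other genes were simulated without change, whereas 15.7% were called in the data, so these rates may not carry over. The members and lists were chosen with earlier results of these data known. The rule for named genes took the 10 members, the 3 genes most like each member above 5 CPM, and from each list and 0 h comparison the 3 called genes per direction with the largest change. Not every gene that this rule took is described here. Neighbours on the chromosome, CITED1 and ZFP57 over time were added after their values were seen. Intervals cover counting error only.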

Additional observations from a re-analysis of the deposited data

Results flagged for a closer look

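The change from 0 h differed between arms in 15 tests of the imprinted genes, by edgeR's test of the difference over the hours a pair of arms shares. Between bcat and CHIR99021 the adjusted p was 0.00956 for CDKN1C, 0.000132 for DLK1 and 2.58e-15 for MEST. Between bcat and Wnt3a it was 0.00931 for CDKN1C, 0.0411 for H19, 1.45e-06 for MEST, 9.49e-05 for PEG10 and 9.49e-05 for SNRPN. Between CHIR99021 and Wnt3a it was 0.00673 for CDKN1C, 0.00249 for DLK1, 0.0483 for H19, 0.00674 for KCNQ1OT1, 2.31e-15 for MEST, 2.29e-05 for PEG10 and 0.00369 for SNRPN. The H19 differences were lost in 14 of the 45 alternatives for bcat and Wnt3a and in 27 for CHIR99021 and Wnt3a, and the bcat and Wnt3a difference of MEST was lost without the single Wnt3a 72 h library (adjusted p = 0.148). At 48 h MEST stood at 1699 and 1676 CPM with CHIR99021, 143 and 139 CPM in bcat and 169 and 183 CPM with Wnt3a.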

How the results depend on the processing

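Of 280 gene results, 127 were called and 82 of these were lost under none of the 45 alternatives. Over these results and alternatives, 12246 values stayed on their side of the threshold, 170 calls were lost, 148 were gained and 1 direction changed. Direction was compared only where the main fit or the alternative called a result, and joint tests of change over several hours have no direction. The number of imprinted genes whose change differed between bcat and CHIR99021 was 3, and it was 6 with no filter on low counts, 6 with DESeq2, 5 with the replicate block and 3 to 5 when 1 library was left out. The number that differed at 0 h between bcat and Wnt3a was 4, and it was 2 without the 4 libraries in doubt and 2 to 4 when 1 library was left out. Between CHIR99021 and Wnt3a at 0 h it was 1, and 1 to 2 when 1 library was left out. The difference of MEST between bcat and Wnt3a over all shared hours was 0.05 and ran from -0.23 (adjusted p = 0.000539, without the Wnt3a 72 h library) to 0.0902 when 1 library was left out. KCNQ1OT1 was not called over time in bcat when only the arms compared were fitted (adjusted p = 0.0907), nor DLK1 with the deposited values as they stand (adjusted p = 0.0563). DESeq2 gave no value for MEG3 in 4 tests over several hours. Over all genes, libraries with the same replicate number did not deviate together (0 of 15 pairs over a correlation of 0.1 in each arm, with medians -0.00394, -0.000646 and 0.0124 in bcat, CHIR99021 and Wnt3a). The main fit took them as unpaired. Correlations over all genes cannot tell whether the numbers mark something shared that acts on some genes. Low counts limit H19, IGF2, DLK1 and MEG3, and NNAT in bcat.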
